A study of Mus musculus with 8 samples.

Results

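The MHC class II presentation genes were followed through RNAseq of mouse intestinal epithelial cells (IECs). The set has 8 genes, Cd74, H2-Aa, H2-Ab1, H2-Eb1, H2-DMa, H2-DMb1, H2-DMb2 and Ciita, found by gene name among the 26820 genes that both the ileum and the colon count table list. They were chosen by their lower counts in DDX5-deficient colon, seen in earlier results of these data. Their colon genotype values are therefore a description without a test, and only the ileum genotype comparison and the comparison of the 2 tissues were tested. Libraries came from 4 mice aged 8 weeks, each giving 1 ileum and 1 colon library. The tissues share these mice, so the ileum genotype test is not fully independent of the colon contrast that chose the genes. The WT mice, WTIEC in the study, carried the genotype DDX5(+/+), Vil1Cre(+). The DDX5KO mice, DDX5ΔIEC in the study, were DDX5(fl/fl), Vil1Cre(+), so both genotypes carried the Cre transgene. The Vil1 promoter drives Cre in epithelial cells of the small and large intestine, and immune cells left in a preparation keep the floxed gene intact. There were 2 mice per genotype, cohoused littermates at steady state without treatment, and the IECs were the cells released by EDTA.

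MHC class II molecules display peptides from the endosomal pathway to CD4+ T cells. An alpha chain (H2-Aa) pairs with a beta chain (H2-Ab1), H2-Eb1 is the beta chain of the second class II molecule, and the invariant chain encoded by Cd74 fills the groove until proteases degrade it in the lysosome. H2-DM, a dimer of H2-DMa with an H2-DMb chain, then exchanges the remaining invariant chain fragment for peptide. Ciita is the transactivator that these promoters require. It binds no DNA itself and is recruited by RFX, CREB and NF-Y proteins on the X and Y boxes. Professional antigen-presenting cells express the genes constitutively, and interferon gamma induces Ciita in other cells, including intestinal epithelium.

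Total counts ranged from 11571061 to 22984283 per library. Ddx5, the targeted gene, read 699 and 699 CPM (counts scaled to library size) in WT ileum and 339 and 326 in DDX5KO ileum (log2 fold change −1.07, SE 0.18, adjusted p = 0.0270, edgeR's quasi-likelihood test). In colon it read 770 and 705 CPM in WT and 367 and 354 in DDX5KO (log2 fold change −1.04, SE 0.09, adjusted p = 0.0867), which did not pass. By genotype, edgeR called 98 of 14068 genes in ileum and 0 of 15362 in colon at an adjusted p under 0.05, and 12.3% and 12.0% at an unadjusted p under 0.05. DESeq2 with the replicate block called 30 genes in ileum and 120 in colon. A count of 0 for a gene list in colon therefore says little about that list. DDX5KO ileum replicate 2 stood apart, with 19.5% of its counts on Gm10800, Gm10801 and Gm21738, 3 genes made of repeat sequence, against 0.226% to 4.04% in the other ileum libraries. CPM values here were scaled by TMM over all 8 libraries.

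Of the 8 members, 6 lie in the MHC on chromosome 17 of GRCm38. H2-DMa (chr17:34119541-34139101, plus strand), H2-DMb2 (chr17:34143307-34151555, plus strand) and H2-DMb1 (chr17:34153072-34160230, plus strand) are neighbours. H2-Ab1 (chr17:34257689-34269419, plus strand), H2-Aa (chr17:34282744-34287823, minus strand) and H2-Eb1 (chr17:34305867-34316674, plus strand) follow. Ciita lies at chr16:10480059-10528418 on the plus strand. The counts are sums over all exons of each gene, UTRs included.

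Promoter windows of 300 bases (250 before to 50 after the start site, RefSeq, GRCm38.p6) were read for H2-DMa, H2-DMb1, H2-DMb2, H2-Aa and H2-Eb1. They were searched on both strands for the X box core ACNGAT and the Y box ATTGG, and for the core followed by ATTGG with 15 to 35 bases between. The motifs share no overlap at this spacing. Among 32851 promoters, 25.8% held the core, 37.4% held ATTGG and 0.496% held the spaced pair on either strand, 0.231% on the gene's own strand. H2-DMb1, H2-DMb2 and H2-Eb1 held the pair on their own strand. The core began at −91 and ATTGG at −61 from the start site in H2-DMb1, with 24 bases between. In H2-DMb2 they began at −120 and −90, again with 24 bases between, and in H2-Eb1 at −88 and −59, with 23 between. H2-Aa held ATTGG at −48 without a core at that spacing, and neither window of H2-DMa held the pair. The H2-DMa window at chr17:34125268-34125567 did not match the gene's transcripts at its end. Other start sites of H2-DMa were not read, so its promoter may hold boxes outside these windows. The stretches are shown because these boxes are where the factors that recruit Ciita bind in class II promoters. Capitals mark the core and ATTGG (in H2-Aa ATTGG alone), and all run 5′ to 3′ on the gene's strand, from chr17:34153092-34153142, chr17:34145121-34145171, chr17:34305771-34305820 and, for H2-Aa, chr17:34287859-34287909 on the minus strand.
H2-DMb1: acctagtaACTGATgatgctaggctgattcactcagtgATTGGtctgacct
H2-DMb2: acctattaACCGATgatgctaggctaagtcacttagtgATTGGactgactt
H2-Eb1: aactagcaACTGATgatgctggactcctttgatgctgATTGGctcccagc
H2-Aa: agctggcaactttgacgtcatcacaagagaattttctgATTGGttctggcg
A match of letters is a description of the window and not a measured binding site. H2-Ab1 and Ciita had no entry.

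MHC class II transcripts were abundant in the WT ileum. Per length, Cd74 led with 669 and 291 CPM per kilobase in the 2 WT ileum libraries, the 76th highest mean of the 26820 genes. The chain genes formed a second tier. H2-Aa read 255 and 94.7 CPM per kilobase, H2-Ab1 233 and 103, and H2-Eb1 195 and 95.7. These 3 genes differed from each other by less than their spread between the 2 mice. The peptide exchange genes were lower, with H2-DMb1 at 48.4 and 25.0 and H2-DMa at 34.3 and 18.9 CPM per kilobase, again overlapping. Ciita, the regulator, read 7.29 and 3.44 CPM per kilobase and lay below every other member except H2-DMb2. The order of the means in WT colon was Cd74 (57.8 ± 3.16 CPM per kilobase, SD, n = 2), H2-Ab1 (22.0 ± 1.80), H2-Aa (12.4 ± 1.22), H2-Eb1 (10.5 ± 1.23), H2-DMb1 (5.36 ± 0.213), H2-DMa (3.83 ± 0.759) and Ciita (0.599 ± 0.0778). Only H2-Aa and H2-Eb1 were neighbours in that order whose means lay within their joint SDs. All members together took 0.211% and 0.0942% of the counts in WT ileum and 0.0180% and 0.0203% in WT colon.

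**Figure D1:**
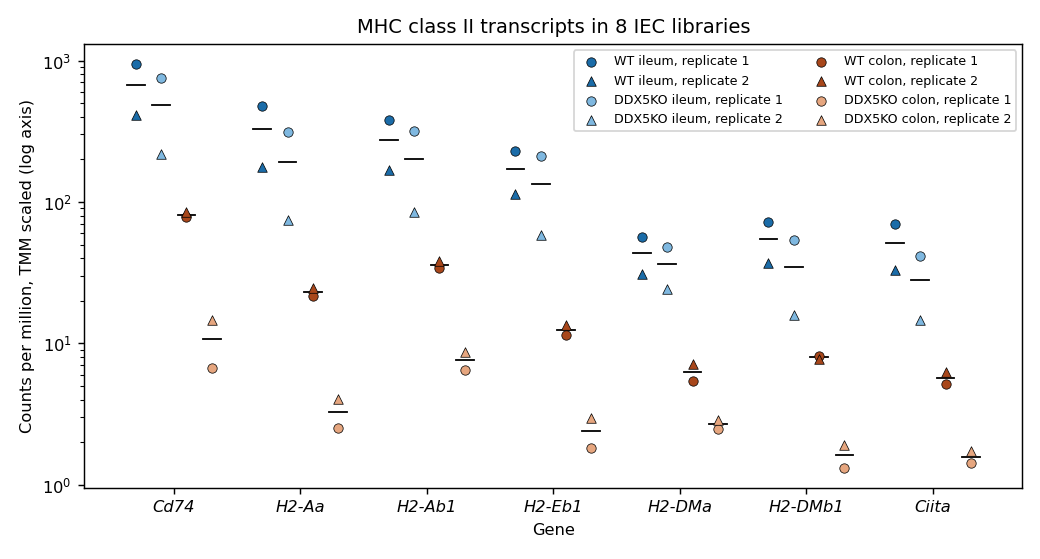
CPM of 7 members (log axis, TMM scaled) in each of the 8 libraries. Circles are replicate 1, triangles replicate 2 and bars the mean of 2 mice. For every member the 4 ileum libraries sit above the 4 colon libraries, and the DDX5KO colon libraries are the lowest. H2-DMb2, with 0 to 4 counts per library, is left out.

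Every member with enough counts to test was higher in the ileum than in the colon of the same mice. The comparison averaged the 2 genotypes and kept the mouse as a block. The average holds the low DDX5KO colon values that chose the genes, so the ratios in WT mice alone are given after it. All 7 of 7 tested members passed at an adjusted p under 0.05 (edgeR's quasi-likelihood test), where 25.4% of the 16109 genes tested were higher in the ileum. The members' median log2 ratio was 3.63, and that of all genes −0.03. H2-Eb1 had a log2 ratio of 4.60 (SE 0.39, adjusted p = 9.5e-05), 24.3-fold, and was higher in the ileum in 4 of 4 mice. H2-Aa had a ratio of 4.58 (SE 0.46, adjusted p = 0.000217) and Cd74 of 4.11 (SE 0.49, adjusted p = 0.000479). The remaining ratios were 3.63 for H2-Ab1, 3.52 for Ciita, 3.45 for H2-DMb1 and 3.20 for H2-DMa, the last a 9.21-fold difference. For the WT mice the log2 ratios were smaller, from 2.70 for H2-DMb1 to 3.69 for H2-Eb1, with Cd74 at 2.93. In that contrast 7 of 7 members passed too (edgeR's quasi-likelihood test, highest adjusted p = 0.0111, for Cd74). Over all genes, 6028 of 16109 passed it in either direction. The WT contrast came from the same fit over all 8 libraries, so its error and scaling also drew on the DDX5KO libraries. For the DDX5KO mice the log2 ratios ran from 3.67 for H2-DMa to 5.51 for H2-Eb1.

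In the colon, the members were lower in both DDX5KO libraries than in both WT libraries. Cd74 read 78.3 and 84.6 CPM in WT colon and 6.72 and 14.7 CPM in DDX5KO colon, a log2 fold change of −3.01 (SE 0.26) or 8.06-fold lower. The DDX5KO libraries held 122 and 323 Cd74 counts against 1494 and 1926. H2-Aa read 21.6 and 24.8 CPM in WT and 2.53 and 4.05 CPM in DDX5KO, a log2 fold change of −2.84 (SE 0.18). For both genes the genotypes were far apart and DDX5KO replicate 1 was the lowest library of the series. H2-Ab1 read 33.9 and 38.1 CPM in WT and 6.50 and 8.65 CPM in DDX5KO (log2 fold change −2.27, SE 0.12). H2-Eb1 read 11.4 and 13.5 CPM in WT and 1.82 and 2.96 CPM in DDX5KO (log2 fold change −2.41, SE 0.22). For both beta chains the genotypes were apart as well, with smaller estimates than for Cd74 and H2-Aa.

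The 2 H2-DM genes that could be fitted did not have the same size of difference. H2-DMb1 read 8.18 and 7.73 CPM in WT colon and 1.32 and 1.91 CPM in DDX5KO colon, a log2 fold change of −2.31 (SE 0.26). H2-DMa read 5.40 and 7.16 CPM in WT and 2.48 and 2.87 CPM in DDX5KO, a log2 fold change of −1.24 (SE 0.21), the smallest of the 7. Ciita read 5.19 and 6.24 CPM in WT and 1.43 and 1.73 CPM in DDX5KO, a log2 fold change of −1.86 (SE 0.23), with near-equal ratios of 0.275 and 0.274 in the 2 replicate numbers. Ranked from the lowest log2 fold change, Cd74 was 13th, H2-Aa 18th, H2-Eb1 29th, H2-DMb1 36th, H2-Ab1 39th, Ciita 82nd and H2-DMa 269th of 15362 genes tested in the colon. All 8 members had both DDX5KO libraries below both WT libraries, as did 22.0% of all genes tested. Because this contrast chose the genes, nothing is read from that count.

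**Figure D2:**
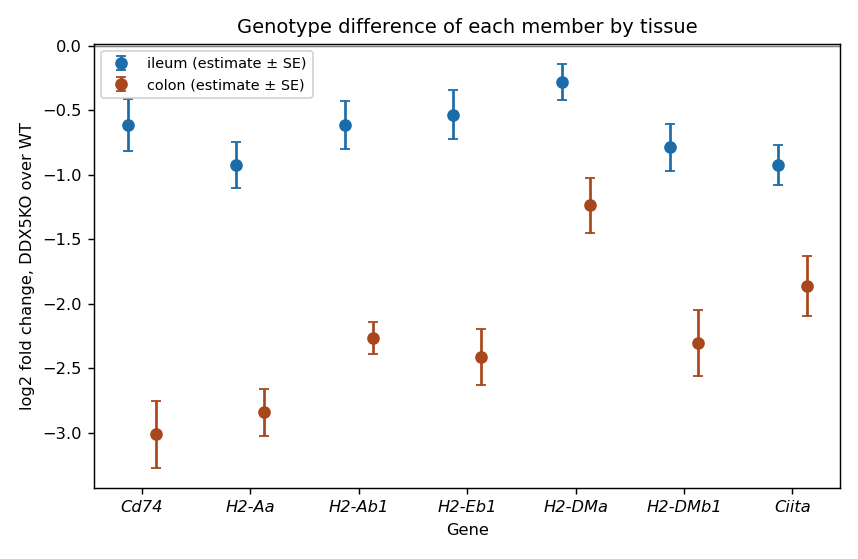
log2 fold change of DDX5KO over WT for 7 members in ileum and colon, with standard errors from edgeR fits within each tissue (2 mice per genotype). Colon estimates run from −3.01 to −1.24 and were what chose the genes. Ileum estimates run from −0.93 to −0.28.

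In the ileum, 2 of 7 tested members fell in DDX5KO at an adjusted p under 0.05, where 0.320% of the 14068 genes tested were lower. Ciita fell by 0.93 on the log2 scale (SE 0.16, adjusted p = 0.0274), 1.90-fold, in the quasi-likelihood fit of edgeR that holds replicate number as its block. H2-Aa fell by 0.92 (SE 0.18, adjusted p = 0.0487). At the study's criterion, an absolute log2 fold change of at least 0.5 with an unadjusted p under 0.05, 6 of 7 were lower, against 3.48% of all genes. Those that met the criterion alone were H2-DMb1 (−0.79, SE 0.19), H2-Ab1 (−0.61, SE 0.19), Cd74 (−0.61, SE 0.20) and H2-Eb1 (−0.53, SE 0.19), with adjusted p-values from 0.100 to 0.288. H2-DMa, at −0.28 (SE 0.14, adjusted p = 0.456), met neither. The median over the members was −0.61, and over all genes −0.0046.

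These calls rested on comparing libraries of the same replicate number. Ciita read 69.5 and 32.8 CPM in WT ileum and 41.7 and 14.6 CPM in DDX5KO ileum. H2-Aa read 477 and 177 CPM in WT and 311 and 74.9 CPM in DDX5KO. In each genotype replicate 2 was the lower library, and DDX5KO replicate 1 lay above WT replicate 2. Cd74 showed the same layout at 943 and 410 CPM in WT and 756 and 218 CPM in DDX5KO. H2-Ab1 read 381 and 169 CPM in WT and 320 and 85.0 CPM in DDX5KO, and H2-Eb1 231 and 113 against 211 and 58.1. H2-DMb1 read 71.9 and 37.1 CPM in WT and 53.6 and 15.8 CPM in DDX5KO, and H2-DMa 56.3 and 31.0 against 48.4 and 24.2. All 7 were lower in DDX5KO within both numbers, as were 30.2% of all genes tested, and none had both DDX5KO libraries below both WT libraries, which 20.5% of all genes had. Without the replicate block no member passed at an adjusted p under 0.05 (edgeR's quasi-likelihood test) and none met the study's criterion. Leaving out WT ileum replicate 1 or DDX5KO ileum replicate 2, in fits without the block, left no member called and turned the sign of 5 and 4 members. The sources used here do not say which mice a replicate number joins.

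The ratio of DDX5KO to WT was smaller in replicate 2 than in replicate 1 for all 7 tested members. For Cd74 it was 0.804 in replicate 1 and 0.531 in replicate 2, and for H2-Eb1 0.918 and 0.513. H2-DMa came closest to equal ratios, at 0.862 and 0.780. Within a genotype, replicate 2 stood at 0.373 to 0.552 of replicate 1 in WT and 0.241 to 0.4996 in DDX5KO over the 7 members. It held under 0.5 of the replicate 1 CPM in both genotypes for Cd74, H2-Aa, H2-Ab1, H2-Eb1 and Ciita, 5 of 7, where 0.668% of all genes tested did so. That threshold was set after the values were seen. The repeat-like genes that fill part of DDX5KO ileum replicate 2 were removed in a further fit, which left 6 members at the study's criterion and 0 at an adjusted p under 0.05, with H2-Aa at a log2 fold change of −0.92 (adjusted p = 0.0978) and Ciita at −0.92 (adjusted p = 0.0608, edgeR's quasi-likelihood test).

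**Figure D3:**
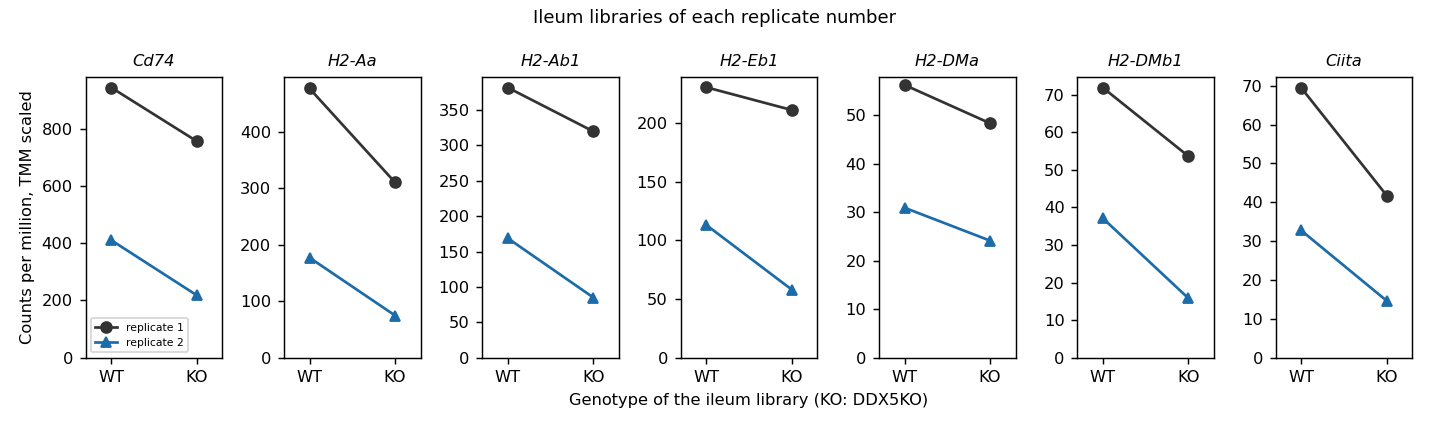
CPM of 7 members in the 4 ileum libraries, with a line joining the WT and DDX5KO library of the same replicate number. Each line falls, and the replicate 2 line lies below the replicate 1 line for every member.

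Within a library, some members kept their proportions and others did not. H2-Ab1 stood at 3.76 to 5.41 times H2-DMb1 per length in all 8 libraries. Cd74 was 2.58 to 2.98 times H2-Ab1 in the 4 ileum and 2 WT colon libraries, and 1.20 and 1.97 times in DDX5KO colon. The ratio of H2-Aa to H2-Ab1 was 0.769 to 1.09 in ileum, 0.555 and 0.568 in WT colon, and 0.341 and 0.409 in DDX5KO colon. H2-DMa to H2-DMb1 read 0.597 to 0.838 in 5 libraries, but 1.70 and 1.36 in DDX5KO colon and 1.38 in DDX5KO ileum replicate 2. The order of the mean levels per kilobase in DDX5KO ileum was Cd74 (345 ± 269.6, SD, n = 2), H2-Ab1 (124 ± 101), H2-Eb1 (114 ± 91.4), H2-Aa (103 ± 88.9), H2-DMb1 (23.4 ± 18.0), H2-DMa (22.1 ± 10.4) and Ciita (2.96 ± 2.01), with the spread wider than the steps inside each tier. In DDX5KO colon it was Cd74 (7.60 ± 3.9999), H2-Ab1 (4.63 ± 0.926), H2-Eb1 (2.02 ± 0.681), H2-Aa (1.76 ± 0.572), H2-DMa (1.63 ± 0.167), H2-DMb1 (1.09 ± 0.280) and Ciita (0.166 ± 0.0220). Cd74 and H2-Ab1 were within their SDs of each other there, and so were H2-Eb1, H2-Aa and H2-DMa. All members together took 0.158% and 0.0397% of the counts in DDX5KO ileum and 0.00246% and 0.00417% in DDX5KO colon. The DDX5KO colon ratios rest on 24 and 42 counts of H2-DMb1 and 45 and 63 of H2-DMa, and they carry the genotype difference that chose the genes.

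**Figure D4:**
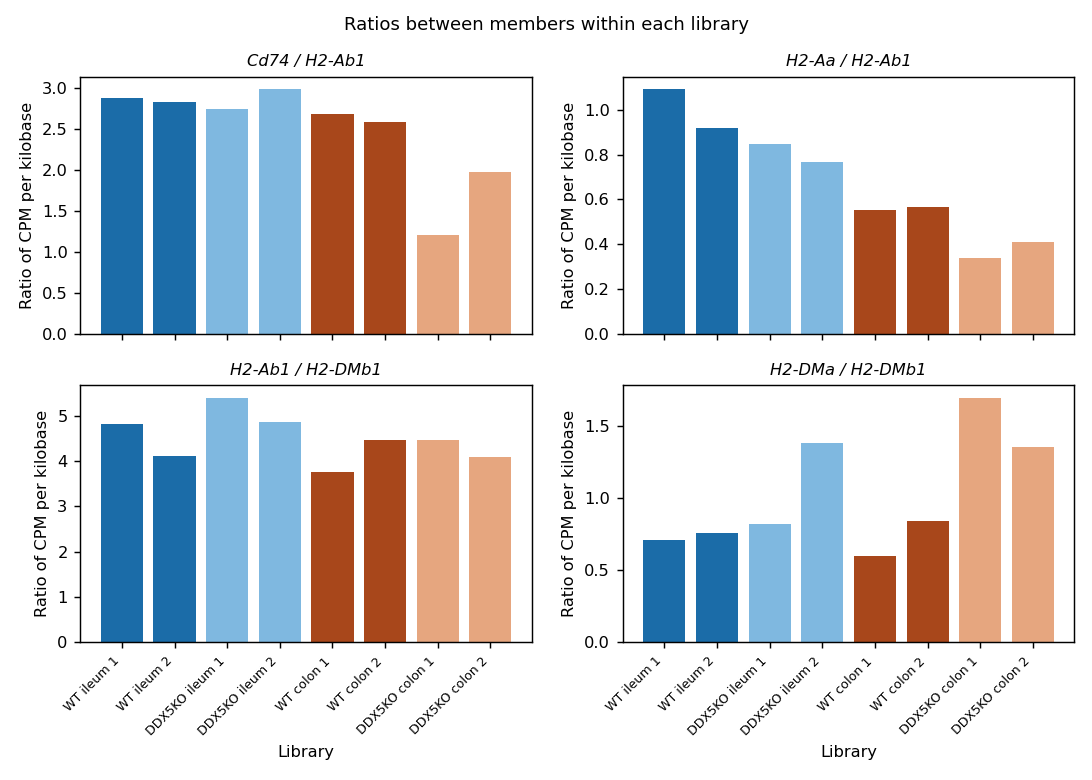
Ratios between pairs of members in each library, from CPM per kilobase, with bars from 0. H2-Ab1 to H2-DMb1 stays between 3.76 and 5.41, whereas Cd74 to H2-Ab1 and H2-Aa to H2-Ab1 are lowest in the DDX5KO colon libraries. H2-DMa to H2-DMb1 is at least 1.36 there and in DDX5KO ileum replicate 2.

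H2-DMb2, the second gene for the H2-DM beta chain, was barely detected. It had 0 and 1 counts in WT ileum, 1 and 1 in DDX5KO ileum, 4 and 3 in WT colon, and 2 and 1 in DDX5KO colon. The exact 95% Poisson interval reached at most 10.2 counts, for the library with 4, and covers counting error only. For the library with 0 it reached 3.69. No fit included it, and no fold change is given. H2-DMb1 shared 22.7% of its 50-base words with H2-DMb2 transcripts, and H2-DMb2 21.2% with H2-DMb1. The authors counted uniquely mapped reads, so read pairs lying wholly within shared stretches would drop out. The split between both genes is uncertain there. The study's reads were paired and longer than 50 bases, so a shared word need not remove a pair. No 50-base word of Cd74, H2-Ab1, H2-Eb1, H2-DMa or Ciita occurred in transcripts of another gene.

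Other genes of the class II pathway were read from the same fits. Among lysosomal and editing genes, which cut the invariant chain and load peptide, 10 were tested. At an adjusted p under 0.05, 0 passed in ileum or colon by edgeR or DESeq2. By edgeR, 3 in ileum and 1 in colon had an unadjusted p under 0.05, all of them higher in DDX5KO. The median log2 fold change of the 10 was 0.10 in ileum and 0.05 in colon, against −0.61 and −2.31 for the members. Ctss, cathepsin S, which trims the invariant chain, read 133 and 132 CPM in WT ileum, 174 and 117 in DDX5KO ileum, 197 and 179 in WT colon, and 236 and 188 in DDX5KO colon. Across tissues, Ctss, Ctsl and Ctsh were higher in colon, a direction taken by 26.0% of all genes, with log2 ratios of −0.53, −1.85 and −0.47. Ctsb (0.39) and Tmem127 (0.30) were higher in ileum, as were 25.4% of all genes. Sppl2a, the protease that cuts the last invariant chain fragment from the membrane, had 281 CPM in WT ileum replicate 1 and did not pass in any of the 3 comparisons. H2-Oa and H2-Ob, the inhibitors of H2-DM, stayed at or under 0.428 CPM in all libraries. The symbol H2-Ea matched no row of either table.

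The factors that sit on class II promoters were all detected, with a median log2 fold change of −0.02 in ileum and 0.07 in colon. Of 10, 0 passed at an adjusted p under 0.05 by genotype in either tissue by edgeR or DESeq2, with 1 at an unadjusted p under 0.05 in each. Rfx5, Rfxap and Rfxank, the RFX subunits, lay between 8.01 and 26.9 CPM in all libraries. Rfxank was higher in colon (log2 ratio −0.30, SE 0.08, adjusted p = 0.017, edgeR's quasi-likelihood test). The coactivators Crebbp (0.67) and Ep300 (0.83) and the factor Creb1 (0.26) were higher in ileum. Shares of all genes tested were 25.4% higher in ileum and 26.0% higher in colon.

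Of the genes that carry the interferon gamma signal to Ciita, 9 of 10 were tested. In DDX5KO ileum 1 fell at an adjusted p under 0.05, as did 0.320% of all genes tested. Socs1, a feedback inhibitor of JAK signalling induced by interferons, read 18.0 and 19.5 CPM in WT and 9.92 and 6.95 CPM in DDX5KO. Both DDX5KO libraries lay below both WT libraries, as for 20.5% of all genes tested. Socs1 fell by 1.15 on the log2 scale (SE 0.20, adjusted p = 0.0288, edgeR's quasi-likelihood test), and DESeq2 called 0 genes of the list. In colon Socs1 read 6.45 and 4.61 CPM in WT and 1.38 and 2.91 CPM in DDX5KO (log2 fold change −1.39, SE 0.41, adjusted p = 0.340). In the tissue comparison 5 of 9 were higher in ileum, Ifngr2 (0.99), Jak2 (1.06), Jak1 (0.27), Irf2 (0.45) and Socs1 (1.87), and 0 in colon. Of all genes tested, 25.4% were higher in ileum and 26.0% in colon. Ifngr1, the ligand-binding receptor chain, read 205 and 204 CPM in WT ileum, 214 and 215 in DDX5KO ileum, 208 and 183 in WT colon, and 289 and 248 in DDX5KO colon. Its colon log2 fold change of 0.45 (SE 0.08, adjusted p = 0.260) was in the direction opposite to the members, and with Socs1 it was 1 of 2 genes of the list at an unadjusted p under 0.05 there. Irf1, a direct activator of Ciita, had 280 and 185 CPM in WT ileum, 249 and 156 in DDX5KO ileum, 150 and 162 in WT colon, and 173 and 172 in DDX5KO colon. Its ileum values, like those of the members, were lower in replicate 2 of each genotype. Ifng transcripts themselves reached at most 0.281 CPM.

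T cell costimulation ligands stayed low. Cd80, Cd86 and Cd40, which supply the second signal on professional antigen-presenting cells, reached at most 0.374 CPM in any library. The list of 10 also holds Cd4 and Lag3, which are T cell genes and not ligands. Of the 10, 3 were tested by genotype in each tissue and 0 passed, adjusted or unadjusted, by edgeR or by DESeq2 adjusted. Icosl (log2 ratio −0.46) and Icam1 (−1.08) were higher in colon, as were 26.0% of all genes tested, and Cd274 ranged from 2.15 to 7.69 CPM.

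The epithelial identity of the preparations was checked with 8 epithelial markers, among them Epcam, Krt8 and Vil1, which summed to 9095 to 16463 CPM per library. Their median log2 fold change by genotype was 0.04 in ileum and 0.11 in colon, with 0 of 8 in ileum and 2 of 8 in colon at an unadjusted p under 0.05. In bulk samples, fewer cells of a type and less RNA per cell cannot be told apart. Markers of the cell types known for constitutive class II expression were near 0. The 10 B cell markers summed to 1.04 to 5.24 CPM in ileum and 0.264 to 0.577 CPM in colon, and none had enough counts to be tested. The 9 dendritic cell markers summed to 1.52 and 0.967 CPM in WT colon and 0.771 and 0.546 CPM in DDX5KO colon, with Xcr1 at 0 in 5 of the 8 libraries. The 10 macrophage markers summed to 4.88 and 3.999 CPM in WT colon and 3.69 and 3.50 CPM in DDX5KO colon. The class II members summed to 164 and 182 CPM in WT colon and 22.9 and 36.9 CPM in DDX5KO colon.

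Pan-leukocyte and T cell markers were lower along with the members in DDX5KO colon. The 5 pan-leukocyte markers summed to 34.0 and 26.3 CPM in WT colon and 7.60 and 15.2 CPM in DDX5KO colon. Ptprc, the gene for CD45, had a log2 fold change of −1.43 (SE 0.30), and 2 of 5 were lower at the study's criterion, against 3.67% of all genes tested. The 10 T cell markers summed to 30.9 and 20.5 CPM in WT colon and 2.42 and 11.3 CPM in DDX5KO colon, with a median log2 fold change of −2.10 and 5 of 8 tested lower at that criterion. At an adjusted p under 0.05 edgeR called 0 of either list, as of all genes in colon, and DESeq2 called 1 pan-leukocyte marker. Gzma, a granule protease of cytotoxic T cells, gave the highest T cell values, 10.3 and 7.16 CPM in WT colon and 0.276 and 2.73 CPM in DDX5KO colon. Cd4 was at 0 in both DDX5KO colon libraries and in WT colon replicate 1.

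In the ileum the sum of the T cell markers followed the replicate number. It was 62.0 and 26.2 CPM in WT and 70.1 and 21.6 CPM in DDX5KO, so replicate 2 was the lower library in both, as for the members. Most of that sum was Gzma (34.4 and 14.8 CPM in WT, 34.3 and 8.66 CPM in DDX5KO) and Gzmb. Cd3e went the other way in DDX5KO, at 1.12 CPM in replicate 1 and 1.92 CPM in replicate 2. The other T cell markers were lower in replicate 2 of both genotypes. The pan-leukocyte markers summed to 56.1 and 73.9 CPM in WT and 53.3 and 49.5 CPM in DDX5KO, and most of that sum was Ptprc (46.1 and 67.7 CPM in WT, 41.9 and 42.1 CPM in DDX5KO). The other 4, Cd52, Cd53, Coro1a and Laptm5, were lower in replicate 2 of both genotypes. Of the T cell markers 0 of 7 tested, and of the pan-leukocyte markers 0 of 5, passed by genotype in ileum at an adjusted p under 0.05 by edgeR or DESeq2, with 0 and 1 at an unadjusted p under 0.05. Between tissues, 4 of 9 tested T cell markers (Cd3e, Cd8a, Gzma and Gzmb) and 3 of 5 pan-leukocyte markers (Ptprc, Coro1a and Laptm5) were higher in ileum. So were 4 of the 8 epithelial markers (Vil1, Krt20, Cldn7 and Epcam), and 25.4% of all genes tested. Among the other lists, Itgax (log2 ratio 2.42), Adgre1 (4.10) and Csf1r (1.29) were also higher in ileum, and of the ILC3 list Kit (0.40) and Il7r (1.65) were higher in ileum, with Cxcr6 lower at the study's criterion in DDX5KO colon. In DDX5KO ileum, the macrophage markers summed to 8.52 and 9.20 CPM and the dendritic cell markers to 2.90 and 5.35 CPM, against 6.54 and 4.29 CPM and 3.46 and 2.29 CPM in WT ileum. Of 4 macrophage markers tested in ileum, 1 had an unadjusted p under 0.05, as did 12.3% of all genes tested. That was Lyz2, at 0.921 and 0.208 CPM in WT and 2.81 and 2.35 CPM in DDX5KO. By edgeR or DESeq2, 0 macrophage markers passed at an adjusted p under 0.05. The part of these cell types in the members' differences was not tested.

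**Figure D5:**
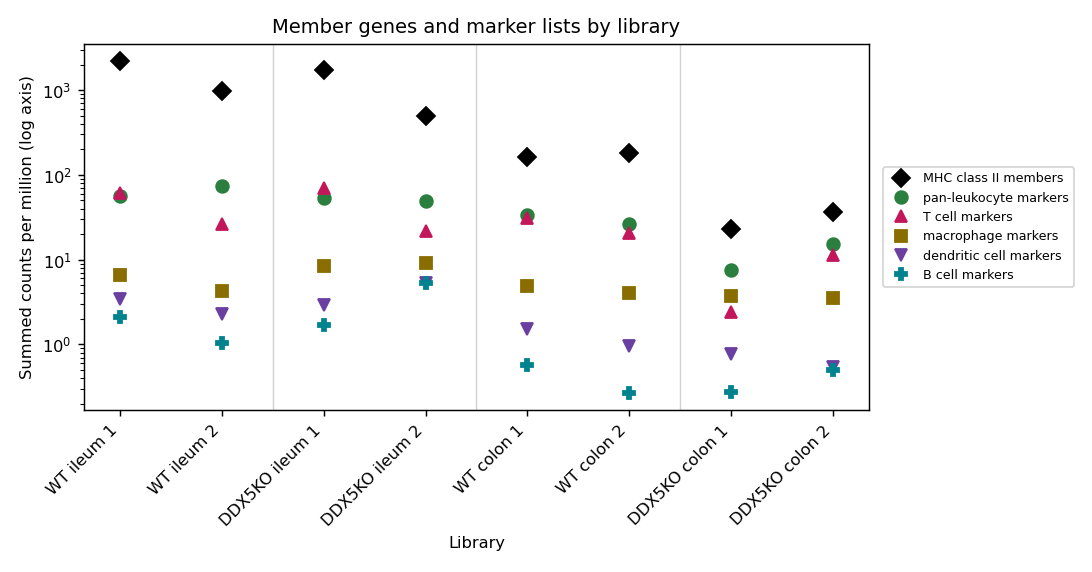
Summed CPM (log axis) of the class II members and of 5 marker lists in each library. The members lie above every list in all 8 libraries. The pan-leukocyte, T cell, macrophage and dendritic cell sums are lowest in the DDX5KO colon libraries, as are the members, with the macrophage sums between 3.50 and 9.20 CPM throughout.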

How the data were processed

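RNAseq of ribosome-depleted total RNA was analysed in 8 libraries. Paired reads were aligned by the authors to mm10 with STAR 2.6.1a, and uniquely mapped reads over exons were counted per gene with featureCounts on GENCODE. The deposited values used here are the raw counts, with the deposited gene length for values per kilobase. The authors also deposited a normalized signal (counts over a DESeq2 1.18.1 size factor) and their own comparison of the genotypes, as a log2 fold change, a Wald score and p-values. None of these was used. Gene names corrupted to dates were restored by gene ID (26 in ileum, 25 in colon).

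The members, gene lists and tests were chosen with earlier results of these data known. Within a tissue, genes passed edgeR's filterByExpr (minimum count 10), were scaled by TMM and tested with edgeR 4.0.16 (R 4.3.3), the quasi-likelihood test with terms for replicate number and genotype, since the authors' design had a harvest covariate. This filter left 14068 genes in ileum and 15362 in colon, and 7 of 8 members in each. Tissues were compared over 16109 genes that both tables list, with the mouse as a block. Column headings of the study's supplement tie each ileum and colon library to a mouse, and deviations of the same mouse correlated across genes at 0.141 in WT and 0.143 in DDX5KO. P-values were adjusted by Benjamini-Hochberg over all genes tested. An exact permutation test of 2 against 2 libraries cannot go below p = 0.333, two-sided. Genes were named by rule: all members, Ddx5, genes of each list that passed in a tested comparison (up to 5 by p) or had the 3 highest means, and the 5 genes most like the members. H2-Oa, H2-Ob, H2-Ea, Ifng, the RFX subunits, Cd80, Cd86, Cd40, Lag3, Xcr1, Cd4 and Cxcr6 were named after their values were seen.

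Alternatives were no block, DESeq2 1.42.0 with and without it, RLE scaling, other filters, 1 fit over all 8 libraries and each library left out. For the tissues, the WT contrast of the main fit was also read. Removal of 3 repeat-like genes was added after seeing the data. Positions are from GENCODE's GRCm38 annotation, a later release than the authors used.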

Additional observations from a re-analysis of the deposited data

How the results depend on the processing

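The tissue comparison kept 7 of 7 members called, and the colon difference its direction and a median of −2.58 to −2.06, under every alternative run. The non-overlap in colon held for 8 members under RLE and plain CPM, and for 22.0% of all genes tested in the main fit. The colon contrast chose the members, so nothing is read from these colon values. H2-DMb2, among the 8, had only 4 and 3 counts in WT colon and 2 and 1 in DDX5KO colon. The ileum calls did not hold. At an adjusted p under 0.05 the 2 members became 0 without the replicate block and 0 by DESeq2 without the block. They became 0 in the fit over all 8 libraries and 0 without the repeat-like genes. DESeq2 with the block kept 1, H2-Aa, and lost Ciita. RLE kept 1 and a mean of at least 10 counts kept 1, in both cases Ciita and not H2-Aa. With no filter 4 were called. Leaving out one ileum library gave 0 to 0. At the study's criterion the 6 became 0 without the block, 0 by DESeq2 without it and 0 over all 8 libraries, and 0 to 7 with one library left out. Over those omissions the log2 fold change ran from −1.64 to 0.25 for Cd74, −2.14 to 0.12 for H2-Aa, −1.70 to 0.26 for H2-Ab1, −1.58 to 0.31 for H2-Eb1 and −0.87 to 0.23 for H2-DMa, and H2-DMb1 and Ciita stayed below 0. Of the single-member values under the alternatives, 105 of the tissue ratios kept their call, 18 ileum values lost it in the same direction, 2 gained it and 9 changed sign (one of them called before, H2-Aa), and 10 colon values moved by more than their SE in the same direction. The fits that left out a library lack the block and leave one group with 1 library, assumed to vary like the others. WT and DDX5KO libraries of the same number deviated together in ileum (r = 0.260 across 14068 genes) more than in colon (r = 0.0179). The cause of the lost calls was not tested.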

Other observations

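The genes whose log2 CPM over the 8 libraries most resembled the mean of Cd74, H2-Aa, H2-Ab1 and H2-Eb1, among 13560 genes that are not members, were Itpka (Pearson r = 0.99), Nos1ap, Stx3, Nras and Pitpnm1 (r = 0.98). These correlations are a description without a test, since the 8 libraries share 4 mice and much of the pattern is the difference between tissues. Itpka, an inositol trisphosphate kinase, read 27.5 and 18.5 CPM in WT ileum, 24.8 and 16.3 in DDX5KO ileum, 12.1 and 12.6 in WT colon, and 6.17 and 8.05 in DDX5KO colon. Stx3, a syntaxin of apical membrane traffic, read 111 and 108 CPM in WT ileum, 122 and 91.3 in DDX5KO ileum, 78.1 and 73.4 in WT colon, and 53.9 and 61.0 in DDX5KO colon. The spans of both genes were narrower than those of the members, among which H2-DMa followed the mean least (r = 0.99).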
